A study of Mus musculus with 4 samples.

Results

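The 3 genes that code for the subunits of the pituitary gonadotropins, Fshb, Lhb and Cga, were followed through 4 RNA-seq libraries of mouse gonadotropes. They were found in the deposited table of 54532 genes by matching the gene identifiers, without their version, to the GENCODE M21 annotation of mm10, and all 3 were present and passed the filter on low counts. The cells came from the pituitaries of male mice of mixed strain, 10 to 12 weeks old, and had been sorted as gonadotropes, according to the sample labels, while the design text of the series speaks of whole pituitaries. There were 2 libraries from control mice and 2 from mice with a conditional knockout (cKO) of Gata2, a zinc-finger transcription factor, which the title of the series calls gonadotrope-specific. The sources used here do not give the Cre driver, the alleles that the controls carry, the reporter used for sorting or whether mice were pooled. They also do not say that the libraries of a group came from different mice, so a p-value here reflects library-to-library spread that could be technical.

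Follicle-stimulating hormone (FSH) and luteinizing hormone (LH) are heterodimers that share 1 alpha subunit, made from Cga, and differ in their beta subunit, made from Fshb or Lhb. The beta subunit gives each hormone its receptor specificity, and the alpha subunit also pairs with the beta subunit of thyroid-stimulating hormone in thyrotropes. Transcription of Lhb is known to answer to gonadotropin-releasing hormone (GnRH) through EGR1 together with steroidogenic factor 1 (SF-1, gene Nr5a1) and PITX1, while that of Fshb depends in addition on activin-type signals through SMAD proteins and FOXL2.

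The genes lie on separate chromosomes of mm10. Fshb (ENSMUSG00000027120.6, chromosome 2, 107056140 to 107059656, minus strand) has 1 annotated transcript with 3 exons and 1600 spliced bases. Lhb (ENSMUSG00000100916.3, chromosome 7, 45420820 to 45421897, plus strand) is the most compact, with 3 exons and 678 spliced bases in a span of 1078 bases. Cga (ENSMUSG00000028298.10, chromosome 4, 34893779 to 34907370, plus strand) spans 13592 bases and has 3 annotated transcripts of 609, 687 and 707 bases, which together cover 954 exonic bases.

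The sequence before each start is shown because the deleted gene codes for a DNA-binding factor and the 3 transcripts all stood lower in cKO. All 3 genes matched a RefSeq promoter entry (GRCm38.p6, 250 bases before the start to 50 after it). The letters are read on the gene's own strand, 5′ to 3′, and stop where a GENCODE exon begins. Capitals mark each GATA on either strand (TATC when read from the opposite strand) and each TATAAA. The stretches are Fshb at chr2:107059657-107059901, minus strand, Lhb at chr7:45420696-45420819, plus strand, and Cga at chr4:34893529-34893778, plus strand.
Fshb: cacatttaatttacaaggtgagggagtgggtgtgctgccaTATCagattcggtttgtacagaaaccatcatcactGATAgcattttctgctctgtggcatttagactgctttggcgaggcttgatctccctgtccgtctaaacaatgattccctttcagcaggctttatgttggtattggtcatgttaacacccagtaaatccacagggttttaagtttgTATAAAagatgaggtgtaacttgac
Lhb: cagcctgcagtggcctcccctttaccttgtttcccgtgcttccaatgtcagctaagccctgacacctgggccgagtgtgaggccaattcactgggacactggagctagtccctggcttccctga
Cga: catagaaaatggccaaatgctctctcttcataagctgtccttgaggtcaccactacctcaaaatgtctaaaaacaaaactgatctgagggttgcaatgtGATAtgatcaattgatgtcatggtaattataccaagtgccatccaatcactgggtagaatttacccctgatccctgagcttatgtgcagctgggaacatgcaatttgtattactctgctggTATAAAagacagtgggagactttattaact

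For Lhb the GENCODE exon begins 126 bases before the RefSeq start, so the nearer elements are given as pieces of 30 bases. The first, at chr7:45420828-45420857, holds in capitals the EGR core CGCCCCC and the PITX motif TAATCT, which reads AGATTA from the opposite strand. The second, at chr7:45420909-45420938, holds TATAAA.
Lhb EGR and PITX piece: gtgtctCGCCCCCaaagAGATTAgtgtcta
Lhb TATA piece: cgcaggTATAAAgccaggtgcccaaggtag

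Within the 250 bases before the RefSeq start, the letters GATA occurred 2 times for Fshb, 207 to 210 and 172 to 175 bases before it, 1 time for Cga (148 to 151 bases) and not for Lhb. The core is short, and 53.6% of the 32851 RefSeq windows held it on at least 1 strand. The longer forms AGATAA as well as AGATAG, and TGATAA as well as TGATAG, each of which contains the core, were held by 26.5% of windows, and of the subunits Fshb alone had a match (TGATAG, 171 to 176 bases before the start). The SF-1 motif AAGGTCA (4.08% of windows) and CGCCCCC (14.8%) each matched Lhb and neither of the others. So did the PITX motif, searched as TAATCC or TAATCT (12.8% of windows held either), and the form found for Lhb was TAATCT. All 3 genes had TATAAA 25 to 31 bases before the start, and 12.4% of all windows held it anywhere. Both strands were searched. The nuclear receptor core AGGTCA, which the SF-1 motif contains, matched Lhb and Cga (14.0% of windows), the AP-1 motif TGANTCA matched Fshb 3 to 9 bases before the start (6.75%), CCAAT matched all 3 (33.8%), and the cyclic AMP response element TGACGTCA matched none of them (1.55%). These are matches of letters, not binding sites, and a missing match says only that the letters are not in this window.

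The libraries held 10646909 and 21135301 estimated counts in controls 1 and 2 and 15541553 and 18362182 in cKO 1 and 2. Genes with any count numbered 15425 and 21824 in controls 1 and 2 and 17624 and 18499 in cKO 1 and 2. Control 1 was the lowest in both respects. Gata2 itself stood at 537 and 526 CPM (counts per 1000000 counts of library total, scaled with TMM factors) in the controls and 221 and 214 in cKO, with the count covering the whole gene. The gonadotrope markers Gnrhr, Nr5a1, Foxl2, Isl1, Tgfbr3l, Foxp2 and Spp1 had counts in all libraries, and their summed level was 1598 and 1833 CPM in controls against 1151 and 1427 in cKO. All 7 had a negative log2 fold change, as had 47.6% of all genes tested, 5 had both cKO libraries below both controls (19.3% of all genes), and 0 passed the test. The 6 lactotrope markers all had positive values, none passing the test, and summed to 361 and 640 CPM in controls and 1371 and 1387 in cKO, with Angpt1 at 0 in 2 libraries. Pomc, the hormone precursor gene of corticotropes and melanotropes, was present at 7161 and 9813 CPM in controls and 6032 and 7145 in cKO. The endothelial, macrophage, fibroblast and erythroid lists each summed to at most 34.6 CPM in any library, with Emcn and C1qa at 0 in all 4. The somatotrope list was uneven within groups, at 1137 and 2397 CPM in controls and 2179 and 407 in cKO, mostly from the growth hormone gene Gh. The stem and progenitor list summed to 59.5 and 66.0 CPM in controls and 90.0 and 112 in cKO, but its members did not move together. The log2 fold change was 1.34 for Sox9 (SE 0.28, edgeR adjusted p = 0.385), 0.64 for Sox2 (SE 0.43) and -0.83 for Aldh1a2 (SE 0.51). In the same libraries the 13 mitochondrially encoded transcripts made up 5.36% and 6.04% of counts in controls and 7.58% and 8.74% in cKO. The part of these differences in the subunit values was not tested. In bulk RNA, fewer gonadotropes in a sample and less subunit RNA per gonadotrope cannot be told apart.

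In the control libraries all 3 subunits were among the most abundant transcripts, though Pomc (7161 and 9813 CPM) stood above each of them. Cga made up 0.625% and 0.608% of all counts in controls 1 and 2. Lhb made up 0.531% and 0.406% and Fshb 0.337% and 0.247%, and the 3 together 1.49% and 1.26%. Levels of different genes were compared as CPM per kilobase of annotated exon, which allows for length. On that scale Lhb stood at 6816 ± 1089, Cga at 6389 ± 61.5 and Fshb at 1800 ± 339 (SD, n = 2). Among all genes on this scale Lhb ranked 4 and 8 in controls 1 and 2, Cga 6 and 7, and Fshb 23 and 28. The levels of Lhb and Cga differed by less than the spread of Lhb, and Fshb was well below both in each library. The order of Lhb and Cga differed between the controls. In controls 1 and 2, Lhb stood at 7586 and 6046 CPM per kilobase and Cga at 6346 and 6433. The order also rests on the length given to Cga. With its longest transcript Cga came to 8622 CPM per kilobase, above Lhb.

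In the cKO libraries the 3 subunits together held 0.614% and 0.702% of counts. Per kilobase the order was Cga at 4001 ± 546, Lhb at 3182 ± 184 and Fshb at 447 ± 85.9 (SD, n = 2). In this group Cga was above Lhb in both libraries, whichever transcript length was used. Among all genes Cga ranked 17 in both cKO libraries, Lhb 22 in both, and Fshb 64 and 53 in cKO 1 and 2.

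**Figure D1:**
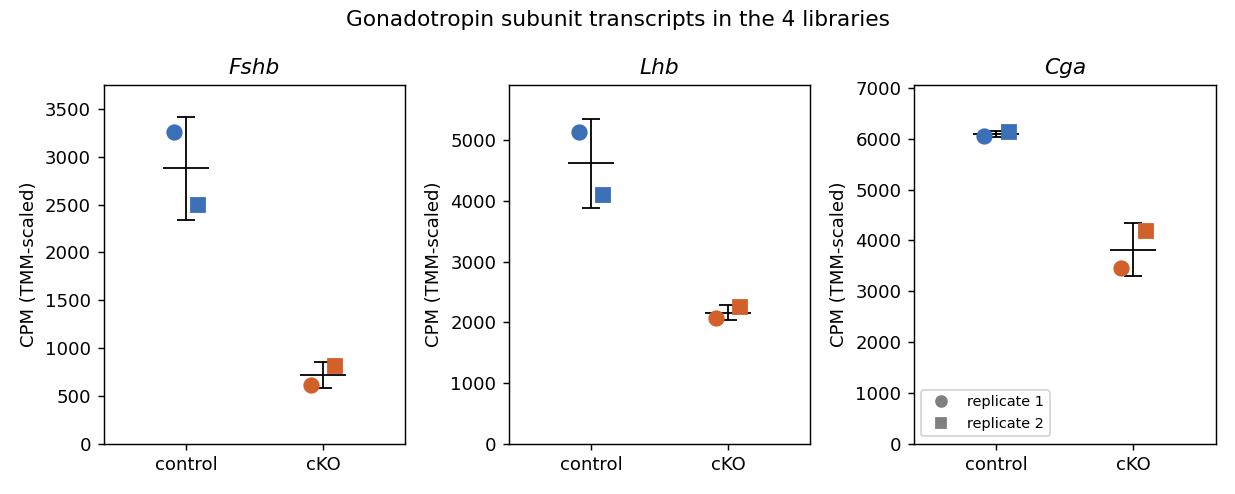
TMM-scaled CPM (y axis, from 0, with a scale of its own for each gene) of Fshb, Lhb and Cga in control and cKO libraries. Circles are replicate 1, squares replicate 2, the wide bar is the mean and the whiskers ± 1 SD. Both cKO libraries lie below both controls for all 3 genes, and Cga has the closest pair of controls (6054 and 6137 CPM).

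Fshb, which carries the FSH-specific beta subunit, had the largest difference of the 3. Its counts were 35888 and 52236 in controls 1 and 2 and 9603 and 14445 in cKO 1 and 2, which scaled to 3263, 2496, 618 and 812 CPM. The cKO libraries were at 21.4% and 28.2% of the control mean and did not overlap the controls, the lowest control being 3.07 times the highest cKO library. Fshb fell by a log2 fold change of -2.01 (SE 0.18, 95% interval -2.45 to -1.58, edgeR quasi-likelihood adjusted p = 0.0381), so that 24.8% of the control level remained. When genes had to reach 1 CPM in at least 2 libraries, the adjusted p was 0.0531 at the same size of change. The title of the series names FSH deficiency, so this direction is not independent evidence.

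Lhb, which carries the LH-specific beta subunit, was lower in cKO without passing the threshold over all genes. It had 56563 and 85778 counts in the controls and 32177 and 39952 in cKO, or 5144, 4099, 2069 and 2245 CPM. The cKO libraries lay close together, at 44.8% and 48.6% of the control mean, and the lowest control was 1.83 times the highest of them. The log2 fold change was -1.10 (SE 0.13, 95% interval -1.41 to -0.79, edgeR adjusted p = 0.0777). Leaving out any 1 library, which changes the set of genes tested, gave an adjusted p of 0.0161 or less.

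Cga, which carries the shared alpha subunit, had the smallest difference. Its counts were 66576.5 and 128418 in the controls and 53624.5 and 74469 in cKO, or 6054, 6137, 3448 and 4185 CPM. The controls differed by little (coefficient of variation 0.962%), while the cKO libraries stood at 56.6% and 68.7% of the control mean. The lowest control was 1.45 times the highest cKO library. The log2 fold change was -0.68 (SE 0.11, 95% interval -0.94 to -0.41, edgeR adjusted p = 0.212), so the call was not reached, although the unadjusted interval does not include 0. The adjusted p was 0.000426 without control replicate 1 and 0.00361 without control replicate 2, but 0.983 without cKO replicate 1 and 0.0837 without cKO replicate 2, where the change was -0.54 and -0.83. The Cga counts of 2 libraries are not whole numbers, and how reads were divided is not given.

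Calls were rare in this comparison. Of the 17349 genes tested, 10 passed the threshold (0.0576%), 8 of them lower in cKO (0.0461%), and 1 of the 3 subunits was among these. By the size of the unadjusted p, Fshb ranked 4, Lhb 13 and Cga 42 among all genes tested. Both cKO libraries lay below both controls for 3356 genes (19.3%), so that this was seen for all 3 subunits is a weak criterion. The median log2 fold change of all genes tested was 0.03.

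The unequal size of the differences was tested directly, by fitting every gene relative to Cga or relative to Lhb within each library. This fit uses the log count of the reference gene as offset in place of the library size, so the result is the change of the ratio itself. It also moves all other genes, whose median log2 fold change became 0.72 relative to Cga and 1.10 relative to Lhb.

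Fshb fell further than Cga. Per kilobase, the ratio of Fshb to Cga was 0.321 and 0.243 in controls 1 and 2 and 0.107 and 0.116 in cKO 1 and 2. Both cKO ratios lay below both control ratios, which held for 4.77% of genes set against Cga, and the cKO pair was close together. The ratio changed by -1.34 on the log2 scale (SE 0.19, 95% interval -1.77 to -0.91, edgeR adjusted p = 0.0251), a factor of 2.54. In that fit 378 of 17348 genes were called (2.18%), of which 16 were lower (0.0922%). Here too the adjusted p depends on the other genes called, since 34 genes had a smaller p than Fshb (edgeR unadjusted p = 5.37e-05).

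Fshb also fell further than Lhb, with less support. Per kilobase, the ratio of Fshb to Lhb was 0.269 and 0.258 in the controls, which lay close together, and 0.126 and 0.153 in cKO. The groups did not overlap, as for 3.16% of genes set against Lhb. The change was -0.91 on the log2 scale (SE 0.19, 95% interval -1.37 to -0.46, edgeR adjusted p = 0.0303), a factor of 1.88. In this fit 21.3% of genes were called and 0.133% were called lower. The adjusted p depends on that high share, since 1069 genes had a smaller p than Fshb (edgeR unadjusted p = 0.00187). It was 0.391 without cKO replicate 1, with a change of -0.78, and 0.168 without cKO replicate 2, with a change of -1.06.

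For Lhb against Cga the difference did not pass. Per kilobase of the union of exons the ratio was 1.20 and 0.940 in the controls and 0.844 and 0.755 in cKO. All cKO values were lower, but the gap between the groups was smaller than the gap between the controls. The ratio changed by -0.42 (SE 0.18, 95% interval -0.81 to -0.02, edgeR adjusted p = 0.168). It was -0.23 without control replicate 1 and -0.58 without control replicate 2, where the adjusted p was 0.0184. Control 1 was the higher control for both beta subunits and not for Cga.

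**Figure D2:**
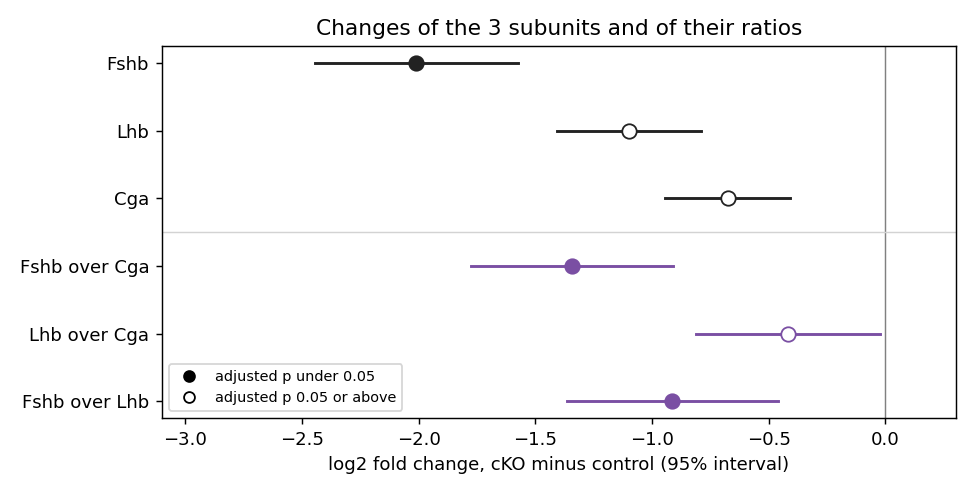
Log2 fold changes, cKO minus control (x axis), of each subunit and of each ratio, with 95% intervals from edgeR that are not adjusted for the number of genes. Filled points passed adjusted p of 0.05. Fshb at -2.01, Fshb over Cga at -1.34 and Fshb over Lhb at -0.91 are filled, while Lhb, Cga and Lhb over Cga are open.

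Both beta subunits added together were set against the alpha subunit, since each hormone takes 1 of each. The summed betas over Cga, per kilobase, came to 1.52 and 1.18 in the controls and 0.951 and 0.871 in cKO. The cKO mean was 67.9% of that of the controls on the log scale. The exact two-sided permutation test over the 4 libraries gave p = 0.33 for this ratio and for the 3 others, the smallest value that 2 against 2 allows. In the controls, whether the ratio lies above or below 1 depends on the length of Cga: with the longest Cga transcript it was 1.12 and 0.876. In both cKO libraries it was below 1 with each length. The change between groups does not depend on that length.

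The make-up of the subunit counts shows the same shift without any scaling between libraries. Fshb supplied 22.6% and 19.6% of the counts of the 3 genes in the controls and 10.1% and 11.2% in cKO. Lhb supplied 35.6% and 32.2% in the controls and 33.7% and 31.0% in cKO, so its share overlapped between the groups. Cga supplied 41.9% and 48.2% in the controls and 56.2% and 57.8% in cKO. Of the counts of the 2 beta genes alone, Fshb held 38.8% (Wilson 95% interval 38.5% to 39.1%) and 37.8% (37.6% to 38.1%) in the controls. It held 23.0% (22.6% to 23.4%) and 26.6% (26.2% to 26.9%) in cKO. These intervals allow for counting error alone, because no molecular identifiers were counted and reads copied from one molecule are not independent. They are narrower than the gaps between replicates of one group, but the error added by copied reads was not measured. Whether depth limited the ratios was therefore not tested.

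**Figure D3:**
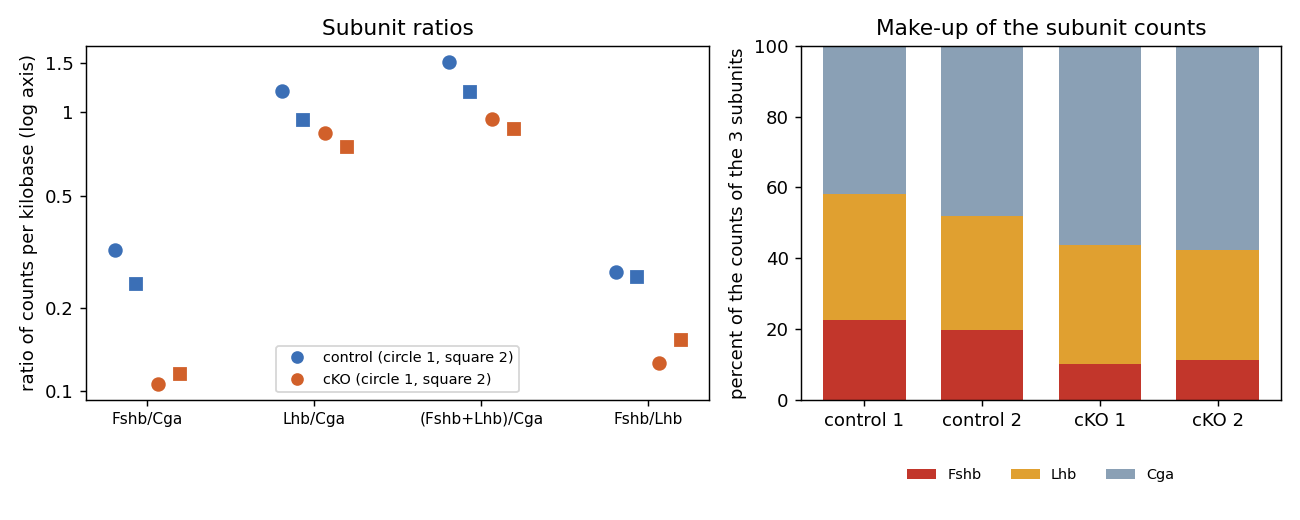
Left, ratios of counts per kilobase in each library (log y axis, blue control, orange cKO, circles replicate 1, squares replicate 2). Right, the percent of the 3 subunits' counts that each gene supplied in each library. Fshb over Cga lies at 0.243 or above in controls and at 0.116 or below in cKO, and Fshb supplies 22.6% and 19.6% in controls against 10.1% and 11.2% in cKO.

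Of the 6 glycoprotein hormone subunit genes, 4 were tested, all 4 had a negative log2 fold change (median -1.21) and 1, Fshb, fell. The tested genes include Fshb, Lhb and Cga, so these figures largely restate the values given above, and only Tshb is new. Of all genes tested, 47.6% had a negative log2 fold change and 0.0461% were called lower in cKO. Tshb, for the thyroid-stimulating hormone beta subunit, was at 22.3 and 13.7 CPM in controls and 7.33 and 7.08 in cKO (log2 fold change -1.32, SE 0.57, edgeR adjusted p = 0.705). Thyrotropes also make Cga. The 5 thyrotrope markers summed to 86.8 and 80.3 CPM in controls and 159 and 125 in cKO, with Trhr at 0 in control 1. They did not move together: Tshb alone of the 5 had a negative log2 fold change. Dio2 went from 54.9 and 52.6 CPM in controls to 116 and 82.7 in cKO. The part of thyrotropes in the Cga values was not tested. Gpha2 and Gphb5, for the subunits of thyrostimulin, did not pass the filter, and Gphb5 had 0 counts in all libraries.

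Of the 34 transcription factors known to act on subunit promoters, 33 were tested, and 1 passed, against 0.0576% of all genes tested. That 1 was Gata2, the gene targeted in cKO, so its call follows from the design and says nothing about the other factors. Their median log2 fold change was -0.03. Pitx1, whose protein acts on all 3 subunit genes, had 725 and 547 CPM in controls and 209 and 219 in cKO (log2 fold change -1.57, SE 0.17, edgeR adjusted p = 0.0575). Control 1 was the higher control, as for Fshb and Lhb but not for Cga, and as also for Tshb, Grem1 and Inhbb. A part of Pitx1 in the subunit values was not tested. Isl1, for a LIM homeodomain factor, had -0.75 (SE 0.21), and the immediate-early factor Junb 0.32 (SE 0.12). Nr5a1, Foxl2 and Egr1, chosen after their values were seen as the best-known partners at these promoters, had -0.06 (SE 0.23), -0.29 (SE 0.17) and -0.23 (SE 0.13).

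Of the 16 receptors and extracellular factors, 15 were tested and 1, Grem1, fell, against 0.0461% of all genes tested. The median log2 fold change of the list was -0.07. Grem1, for the BMP antagonist gremlin, had 199 and 115 CPM in controls and 8.17 and 5.79 in cKO (log2 fold change -4.49, SE 0.37, edgeR adjusted p = 0.0263). The title of the series names Grem1, so its call is not independent evidence. Inhbb, for the beta B subunit of activin and inhibin, went from 187 and 148 CPM to 36.0 and 53.8 (-1.90, SE 0.26, adjusted p = 0.108). Betaglycan, the co-receptor of inhibin and the product of Tgfbr3, had a transcript value of -0.55 (SE 0.19) and Adcyap1r1, for the receptor of the peptide PACAP, -0.48 (SE 0.18). All 13 mitochondrially encoded genes had positive values, with a median of 0.65, and 0 passed. Those with the smallest p were mt-Nd1 (0.73), mt-Cytb (0.50), mt-Nd2 (0.69) and mt-Nd5 (0.44).

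**Figure D4:**
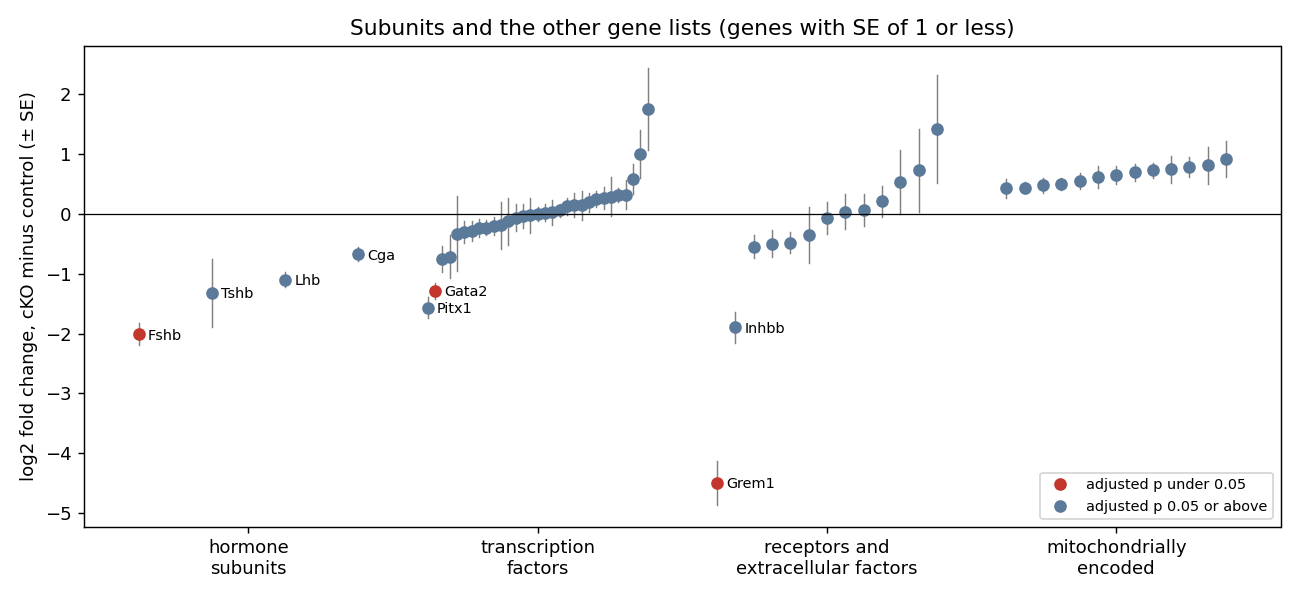
Log2 fold change, cKO minus control (y axis, ± SE), of the tested genes of each list, ordered by value within the list. Red points passed adjusted p of 0.05, and 2 transcription factors and 2 extracellular factors with an SE above 1 are not drawn. Fshb (-2.01), Gata2 (-1.29) and Grem1 (-4.49) are red, and Inhbb (-1.90) and Pitx1 (-1.57) lie low in their lists without passing.

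Genes with the most similar pattern were found by the root mean square difference of log2 CPM, centred on each gene's mean, over the 4 libraries and 6035 genes. Nearest to Fshb were Inhbb (0.0845), the laminin gene Lama1 (0.0971) and Ccdc8 (0.142). Lama1 had 499 and 375 CPM in controls and 96.9 and 145 in cKO, so it too was higher in control 1 and lower in cKO 1 than in its partner. Nearest to Lhb were the linker histone gene H1f0 (0.0324), the clusterin gene Clu (0.0498) and Aldh3b1 (0.0651), and nearest to Cga were Nucb2 (0.0309), Abr (0.0317) and Nsg1 (0.0393). The closest neighbour of Fshb was thus farther from it than the third neighbour of Cga was from Cga. With 4 libraries this likeness rests mostly on the size of the difference between groups.

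The genes around each subunit gene did not pass the test. Nearest to Fshb are Arl14ep, 81716 bases away (log2 fold change 0.01, SE 0.30), and the potassium channel gene Kcna4, 230983 bases away (-1.10, SE 0.46). Around Lhb, Ntf5 had -0.80 (SE 0.52) and Gys1 -0.21 (SE 0.30). Around Cga, Zfp292 had 0.15 (SE 0.23) and Mob3b 0.80 (SE 0.99). A pair of opposite-strand genes shares exonic bases with a subunit: Ruvbl2 shares 138 bases with Lhb and Platr9 305 bases with Cga. Whether strand was used in counting is not given, so reads of such pairs cannot be told apart there. The log2 fold change was -0.89 for Ruvbl2 (SE 0.37) and -0.23 for Platr9 (SE 0.66). The counts of Ruvbl2 came to 0.831% to 1.21% of those of Lhb and those of Platr9 to 0.148% to 0.290% of those of Cga. Reads dropped because they lie in shared bases would not show in these percentages, and such a loss was not tested. No other gene overlaps Fshb in this annotation.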

How the data were processed

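The authors deposited 1 table of estimated counts per gene, not scaled between libraries. The tools named are STAR 2.5.1b and featureCounts 1.5.0-p1, with the build mm10, per the submitters' processing notes. Annotation release, use of strand and handling of multi-mapped reads: not given in the sources used here. Of the deposited values 4.50% were not whole, and 54495 of 54532 identifiers matched GENCODE M21.

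Counts were rounded, filtered with filterByExpr (minimum count 10, minimum total 15) and scaled by TMM. All genes were tested with edgeR 4.0.16 under R 4.3.3 (quasi-likelihood F-test, legacy form, two-sided, group the only term), and p-values were adjusted by Benjamini-Hochberg over all genes with a threshold of 0.05. The standard error is the log2 fold change divided by the square root of F, and intervals are 95%. Ratios were tested in the same way with the log count of Cga or Lhb as offset. Per-kilobase levels are CPM over the union of a gene's exons. The TMM fit and the fit with Cga as offset were tested on simulated counts, in which the subunits were given a small, preset spread. For the ratios only the size of the change was checked there, not the p-value. The fit with Lhb as offset was not simulated. The log2 CPM values used for likeness had a prior of 0.5 CPM and a minimum average of 5.

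The 3 genes, the gene lists and the tests were chosen with earlier results of these data known. The text names the 3 subunits, up to 4 members of each list with the smallest p and any that passed, all hormone subunits, the 3 most similar genes to each, and overlapping or nearest coding genes. Of cell type markers, corticotropes and melanotropes are given by Pomc and most other lists by their summed level. Alternatives were other scaling, filters, DESeq2 1.42.0, limma-voom (limma 3.58.1), other edgeR settings, the replicate block, unrounded counts, each library left out and other transcript lengths.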

Additional observations from a re-analysis of the deposited data

How the results depend on the processing

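All 3 subunits and all 3 ratios kept a negative change under every alternative run. The change of Fshb lost its call with a filter of 1 CPM in 2 libraries (-2.01, adjusted p = 0.0531 by edgeR). Lhb passed without a filter (-1.10), with DESeq2 (-1.10), limma-voom (-1.05), robust=TRUE (-1.10) and the newer quasi-likelihood method (-1.10), and ranged from -1.25 to -0.93 with 1 library left out. Cga passed with DESeq2 (-0.67), limma-voom (-0.68) and the newer method (-0.68), and ranged from -0.83 to -0.54 with 1 library left out. Lhb over Cga passed with DESeq2 (-0.42), and ranged from -0.58 to -0.23 with 1 library left out. Fshb over Lhb ranged from -1.06 to -0.78 and Fshb over Cga from -1.53 to -1.13. The cause of these gained and lost calls was not tested. The count of 10 genes called became 943 under DESeq2, 256 under limma-voom, 47 under the newer method, 26 under robust=TRUE, 253 without a filter, 3 under the 1 CPM filter and 66 to 681 with 1 library left out (681 without control replicate 2). In those last fits the lone library is taken to vary as the other group does. Without control replicate 2 the median of all genes was 0.25.

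With the longest Cga transcript its level was 8622 CPM per kilobase in controls and 5399 in cKO, and with the shortest coding one 10009 and 6267. In the same order, control then cKO, Fshb over Cga was 0.209 and 0.0824 or 0.180 and 0.0710, Lhb over Cga 0.791 and 0.593 or 0.682 and 0.510, and both betas over Cga 1.0 and 0.675 or 0.862 and 0.581. The replicate numbers gave no sign of pairing (deviations of same-numbered libraries correlated at -0.0105 across genes). With the replicate block the changes were -2.01 for Fshb, -1.09 for Lhb and -0.68 for Cga, the ratios Fshb over Cga, Lhb over Cga and Fshb over Lhb by -1.33, -0.41 and -0.92, 7 genes were called, and no call of a subunit or ratio changed. Leaving out mitochondrial genes, added after seeing the data, gave -2.02, -1.11 and -0.69 and 11 calls.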
